A study of Homo sapiens with 6 samples.

Results

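A set of 9 actin-filament genes was followed across 6 poly-A RNA libraries of LoVo, an established human colon adenocarcinoma cell line. The set holds the filamin gene FLNA, the α-actinin genes ACTN1 and ACTN4, the tropomyosin genes TPM1, TPM2 and TPM4, the caldesmon gene CALD1, the transgelin gene TAGLN and the myosin light chain gene MYL9. Members were picked by gene symbol, with earlier results of these data known. All 9 were found among the 22496 symbols listed in at least 1 library. The libraries fall into 3 labelled SHARPIN knockout (KO) and 3 labelled non-target (NT), and the study asked which transcripts change when SHARPIN, a partner of the ligase that builds linear ubiquitin chains, is removed from these cells. The labels give no further agent, no clone number and no editing method, and the sources used here do not give how the KO and NT cells were derived.

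Actin filaments are cross-linked, stabilised and pulled on by a small group of proteins. Filamin A joins crossing filaments into networks, α-actinins bundle parallel filaments, tropomyosins lie along the filament as coiled coils, and caldesmon and transgelin bind its side. The regulatory light chain encoded by MYL9 belongs to myosin II, the motor that contracts the filaments. Many of these genes are textbook targets of serum response factor (SRF), which binds CArG boxes together with actin-sensing coactivators, and several are best known from smooth muscle and fibroblasts but are also made in epithelial cells.

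Values are FPKM, fragments scaled by transcript length and by the mapped total, and an FPKM level can be set beside that of another gene because it is taken per length. Fold changes are log2 differences of FPKM + 1, KO over NT, from limma with the Benjamini-Hochberg adjustment over 13092 genes, and an adjusted p under 0.05 is called past the threshold. SHARPIN itself stood at 7.55, 11.9 and 18.0 FPKM in the KO-labelled libraries, against 11.9, 13.9 and 12.9 FPKM in the NT-labelled libraries, a log2 fold change of -0.12 ± 0.26 (SE, adjusted p = 0.827). KO replicate 3 thus held more SHARPIN transcript than every NT library, so the transcript level does not mark the KO-labelled libraries as a group, and the labels alone place them there. The labels do not say that replicates are separate cultures; p-values therefore rest on a spread among 6 libraries that could be technical. The libraries listed 19068 to 20158 genes and held an estimated 20900000 to 22500000 fragments each. The first replicate of each group stood apart from replicates 2 and 3 of its own group, and NT replicates 2 and 3 were nearly alike (r = 0.998 across genes, which are not independent replicates). Summed FPKM was 425032, 416852 and 522919 in KO libraries and 422109, 421585 and 431264 in NT libraries.

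Of the 9 members, 4 rose in KO libraries (FLNA, ACTN1, TPM4 and CALD1), 1 fell (MYL9) and 4 did not pass the threshold (ACTN4, TPM1, TPM2 and TAGLN). Over all 13092 genes tested, 1597 (12.2%) passed, with 820 higher (6.26%) and 777 lower (5.93%) in KO libraries. The groups did not overlap for 7 of the 9 members, against 32.1% of all genes tested. With each library rescaled to the same FPKM sum, ACTN4 and CALD1 overlapped as well, which left 5. The 32.1% is for FPKM without rescaling, and the share over all genes with equal sums was not computed. The members' median log2 fold change was 0.36, against 0.02 over all genes tested. Since the 9 genes were chosen with earlier results of these data known, these contrasts with all genes are not independent of that choice. The split between directions depended on scaling: it was 1 higher and 2 lower after each library was rescaled to the same FPKM sum, 2 and 2 after quantile normalization, and 3 and 1 after median-ratio scaling. Over all genes, the same settings gave 605 higher and 766 lower, 884 and 867, and 801 and 800.

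**Figure D1:**
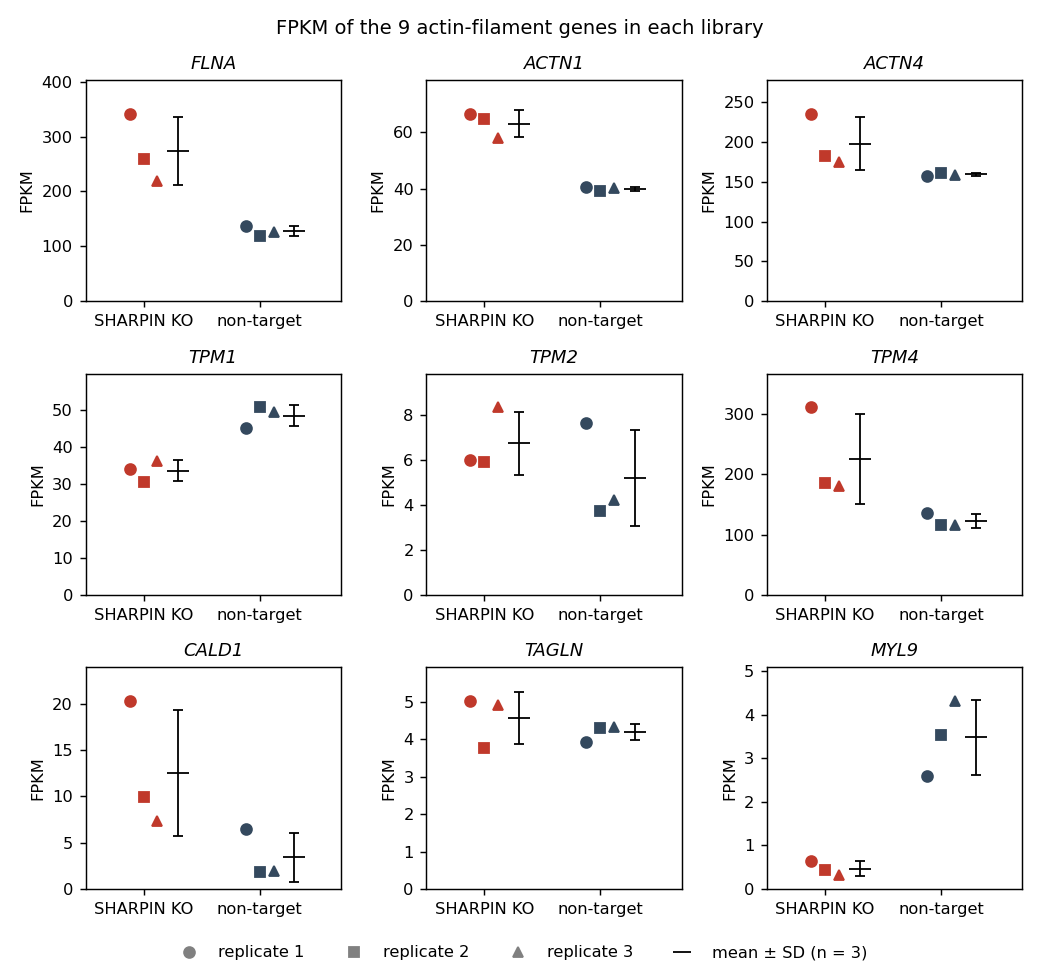
FPKM of each of the 9 genes (vertical axes start at 0) in the 3 SHARPIN KO and 3 non-target libraries; symbols mark the replicate number and the bars give mean ± SD (n = 3). FLNA, ACTN1, ACTN4, TPM4 and CALD1 sit higher in every KO library than in any non-target library (ACTN4 and CALD1 overlap with equal FPKM sums), TPM1 and MYL9 sit lower, and TPM2 and TAGLN overlap.

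Promoter sequence is shown for the members in which a CArG box was found, since the box is the site that SRF binds. The RefSeq promoter table (GRCh38.p14, a window around each start) held 17 promoters of 7 members. It held none for MYL9 or TAGLN, so those genes were not searched for any motif. A CArG box, searched on both strands, lay in 3 of the 17, and over the whole table it lay in 454 of 35116 promoters (1.29%). The promoters with a box belonged to FLNA, TPM4 and ACTN1. Each stretch below was located by an exact match to GRCh37, the build of the deposited values, and is written 5′ to 3′ on the gene's strand with the box in capitals and 40 bases on either side. None of the stretches touches an annotated exon of its own gene.
FLNA, chrX:153603047-153603136, minus strand, box starting at -94 from the RefSeq start: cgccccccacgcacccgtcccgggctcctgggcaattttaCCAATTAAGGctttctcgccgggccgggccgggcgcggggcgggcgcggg
TPM4, chr19:16178135-16178224, plus strand, box starting at -173 from the start of 1 of its 3 listed promoters: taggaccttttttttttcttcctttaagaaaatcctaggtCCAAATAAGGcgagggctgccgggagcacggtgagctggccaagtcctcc
ACTN1, chr14:69444405-69444494, minus strand, box starting at -171 from the start of 1 of its 4 listed promoters: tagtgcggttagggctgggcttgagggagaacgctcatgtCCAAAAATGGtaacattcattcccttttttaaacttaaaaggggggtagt
The TEAD motif GGAATG lay in 3 of the 17 promoters (2 of CALD1 and 1 of ACTN1), against 14.0% of the whole table. TGANTCA, an AP-1-like pattern that allows any base at its centre, lay in 2 (1 of CALD1 and 1 of ACTN4), against 7.71%. The matches read TGATTCA in CALD1 and TGAATCA in ACTN4, with T or A at the centre. Both motifs were searched on both strands. A match is a description of the letters, and binding was not measured.

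FLNA, at X:153576892-153603002 on the minus strand of GRCh37, was the most abundant member in KO libraries. It stood at 342, 259.9 and 219 FPKM in KO libraries, against 137, 119 and 127 FPKM in NT libraries. Every KO library held more than any NT library, and KO replicate 1 was the highest. The means were 274 ± 62.6 FPKM in KO libraries and 128 ± 8.94 FPKM in NT libraries (SD, n = 3 each), a 2.15-fold difference. The log2 fold change was 1.07 ± 0.20 (SE, 95% interval 0.63 to 1.51, adjusted p = 0.00606), and it stayed past the threshold without any 1 of the 6 libraries (largest adjusted p 0.0323; 0.00703 without KO replicate 3). In bulk RNA, fewer cells of a type and less RNA per cell cannot be told apart, here and for every gene that follows.

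The α-actinins were both higher in every KO library in FPKM, and ACTN1 rose. ACTN1, at 14:69340845-69446157 on the minus strand, stood at 66.6, 64.8 and 57.8 FPKM in KO libraries, against 40.4, 39.1 and 40.2 FPKM in NT libraries. The means were 63.1 ± 4.67 and 39.9 ± 0.706 FPKM in KO and NT libraries (SD, n = 3 each), a 1.58-fold difference, and the log2 fold change was 0.65 ± 0.15 (SE, adjusted p = 0.0215). The call was lost without KO replicate 2 (adjusted p = 0.0653), NT replicate 2 (0.134) or NT replicate 3 (0.129), and after scaling to the same FPKM sum (0.0763) or quantile normalization (0.0637).

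ACTN4 encodes the second non-muscle α-actinin and lies at 19:39138289-39222229 on the plus strand. It stood at 235, 182 and 175 FPKM in KO libraries, against 158, 161 and 158 FPKM in NT libraries. The groups did not overlap in FPKM, though with equal FPKM sums KO replicate 3 stood below all NT libraries. KO replicate 1 lay far above the other KO libraries, and the log2 fold change of 0.30 ± 0.17 did not pass (95% interval -0.09 to 0.68, adjusted p = 0.325). CAPN12, an annotated gene that overlaps ACTN4 on the opposite strand, stood at 10.4, 6.35 and 11.4 FPKM in KO libraries and 9.11, 5.24 and 4.30 FPKM in NT libraries, and the sources used here do not give whether counting used strand. ACTN4 gave 77.9%, 73.7% and 75.1% of the sum of both genes in KO libraries, against 79.6%, 80.4% and 79.8% in NT libraries, a difference of -4.34 percentage points. An exact two-sided permutation test over libraries gave p = 0.1, the smallest that 3 against 3 allows, and 0.133 after adjustment over the 8 family shares tested, of which 7 are given here. Shares are ratios within a library, so scaling of the library total cannot move them.

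Among the tropomyosins, TPM4 rose and TPM1 was lower in every KO library. TPM4, at 19:16177831-16213812 on the plus strand, encodes a short non-muscle tropomyosin and was the most abundant tropomyosin in all 6 libraries. It stood at 310.3, 185 and 180.5 FPKM in KO libraries, against 136, 116 and 116 FPKM in NT libraries. Both first replicates were the highest of their group, KO replicate 1 by a wide margin. The log2 fold change was 0.83 ± 0.23 (SE, adjusted p = 0.0434) and the ratio of the means was 1.84. The call was lost without any 1 library other than KO replicate 3: adjusted p was 0.0586 without KO replicate 1, 0.0714 without KO replicate 2, and 0.0799, 0.132 and 0.139 without NT replicates 1, 2 and 3. It was also lost under all 3 other scalings, at 0.0977 with equal FPKM sums, 0.0682 with median ratios and 0.102 with quantile normalization.

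TPM1, at 15:63334819-63364114 on the plus strand, encodes both muscle and non-muscle tropomyosin isoforms. It stood at 34.1, 30.6 and 36.0 FPKM in KO libraries, against 45.1, 50.6 and 49.4 FPKM in NT libraries, with no overlap. The log2 fold change was -0.52 ± 0.15 (SE), which missed the threshold (adjusted p = 0.0612). With the replicate number as a block it passed (adjusted p = 0.0140), as it did with equal FPKM sums (0.0295), with quantile normalization (0.0129) and without both first replicates (0.0463). The labels do not state that same-numbered libraries are pairs. With the block 3309 of 13092 genes passed, against 1597 without it. These limits hold for every blocked value that follows. The antisense gene TPM1-AS, which overlaps TPM1, was also lower. Its values were 1.59, 1.10 and 1.14 FPKM in KO libraries, against 1.71, 2.28 and 2.11 FPKM in NT libraries. Without a stated strand setting, the reads of TPM1 and TPM1-AS cannot be told apart.

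TPM2, at 9:35681989-35690053 on the minus strand and best known from muscle, was the least abundant tropomyosin. It stood at 5.98, 5.89 and 8.33 FPKM in KO libraries, against 7.62, 3.74 and 4.22 FPKM in NT libraries. The groups overlapped through NT replicate 1, and the log2 fold change was 0.36 ± 0.25 (adjusted p = 0.420). TPM3, a non-muscle tropomyosin gene outside the 9, had a log2 fold change of -0.02 ± 0.20 (95% interval -0.46 to 0.43, adjusted p = 0.965).

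TPM4 gave more of the tropomyosin pool in KO libraries and TPM1 less. The 4 genes summed to 408, 289.8 and 299 FPKM in KO libraries, against 241, 246 and 246 FPKM in NT libraries, without overlap, but with equal FPKM sums the groups overlapped through KO replicate 3. TPM4 gave 76.1%, 63.7% and 60.4% of that sum in KO libraries and 56.4%, 47.2% and 47.2% in NT libraries, with no overlap. TPM1 gave 8.36%, 10.5% and 12.1% in KO libraries and 18.7%, 20.5% and 20.1% in NT libraries. The ratio of TPM4 to TPM1 was 9.11, 6.04 and 5.01 in KO libraries and 3.01, 2.30 and 2.34 in NT libraries. The differences in share were 16.51 and -9.47 percentage points for TPM4 and TPM1, each with an exact permutation p = 0.1 (adjusted 0.133). TPM3's share overlapped between groups (exact p = 0.3), and so did that of TPM2 (exact p = 0.9).

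**Figure D2:**
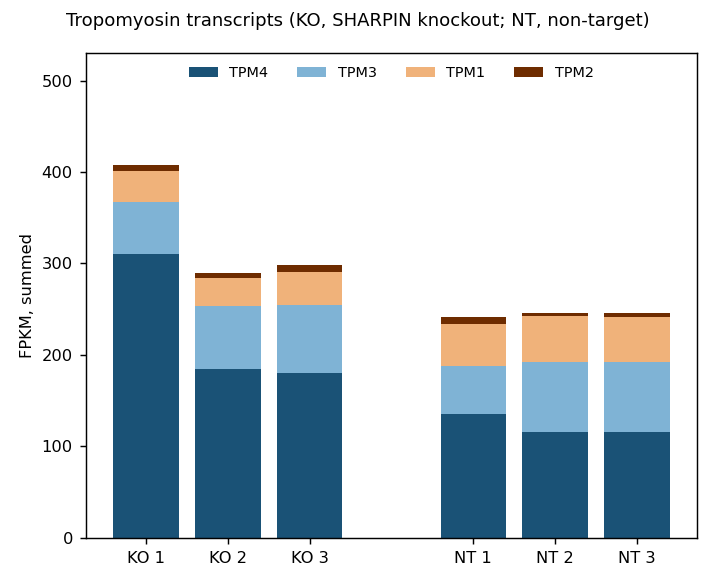
Summed FPKM of the 4 tropomyosin genes in each library, stacked by gene, with KO libraries left of NT libraries and the axis starting at 0. TPM4 is the largest layer in all 6 libraries and its share is higher in each KO library, while the TPM1 layer is thinner there.

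CALD1 had the largest log2 fold change upward among the 9. It lies at 7:134429003-134655480 on the plus strand and encodes caldesmon, which binds actin, tropomyosin and myosin and restrains the motor. CALD1 stood at 20.3, 9.98 and 7.39 FPKM in KO libraries, against 6.495, 1.81 and 1.90 FPKM in NT libraries. The gap was narrow, since KO replicate 3 lay just above NT replicate 1 in FPKM and just below it with equal FPKM sums, and the first replicate was the highest of each group. The means were 12.6 ± 6.84 FPKM in KO libraries and 3.40 ± 2.68 FPKM in NT libraries (SD, n = 3 each), with a log2 fold change of 1.67 ± 0.43 (SE, adjusted p = 0.0323). The call held without NT replicate 1 and was lost without any other 1 library (adjusted p from 0.0546 without KO replicate 3 to 0.125 without NT replicate 3), and with equal FPKM sums (0.0587).

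Some fibroblast markers, the collagen genes among them, were highest in NT replicate 1, the library that raised the NT values of CALD1 and TPM2. The 8 markers summed to 0.812, 0.297 and 0.234 FPKM in KO libraries, against 20.2, 7.97 and 7.78 FPKM in NT libraries. COL1A1 and COL1A2, the fibrillar collagen genes, stood at 6.60 and 6.12 FPKM in NT replicate 1 and at or below 0.290 FPKM in the other 5 libraries. LUM, which encodes lumican, ran the other way within the NT libraries, at 5.03, 7.52 and 7.45 FPKM in replicates 1, 2 and 3, and made up most of the sum in replicates 2 and 3. DCN, PDGFRA and COL1A2 were listed at 0 or absent in KO replicates 2 and 3 and NT replicates 2 and 3. The other markers were above 0 in NT replicates 2 and 3: besides LUM, COL1A1 stood at 0.290 and 0.223 FPKM and COL3A1 at 0.069 and 0.071 FPKM. PDGFRB stood there at 0.069 and 0.024 FPKM, and THY1 at 0.026 and 0.006 FPKM. The part of other cells in these values was not tested. Without both first replicates, a fit added after seeing the data, CALD1 had a log2 fold change of 1.75 (adjusted p = 0.00226). The NT libraries left in that fit were the nearly alike replicates 2 and 3 (r = 0.998), and 2280 of all genes passed there. With NT replicates 2 and 3 as 1 sample, CALD1 did not pass (log2 fold change 1.44, adjusted p = 0.122). Nor did it pass on each gene's own spread (adjusted p = 0.228).

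TAGLN, at 11:117070086-117078180 on the plus strand, encodes transgelin, a classic smooth muscle and SRF target. It stood at 5.02, 3.78 and 4.92 FPKM in KO libraries, against 3.94, 4.29 and 4.34 FPKM in NT libraries. The groups overlapped and the log2 fold change was 0.10 ± 0.17 (95% interval -0.29 to 0.48, adjusted p = 0.783). Its paralog TAGLN2, the main transgelin of these cells, stood at 135, 88.7 and 115 FPKM in KO libraries, against 119.5, 139 and 136 FPKM in NT libraries, with a log2 fold change of -0.24 ± 0.19 (adjusted p = 0.494). TAGLN gave 3.57%, 4.09% and 4.11% of the sum of both in KO libraries, against 3.19%, 2.996% and 3.08% in NT libraries (difference 0.834 percentage points, exact permutation p = 0.1, adjusted 0.133). PCSK7, an annotated gene, overlaps TAGLN on the opposite strand. It stood at 4.97, 7.18 and 6.415 FPKM in KO libraries, against 4.86, 7.99 and 7.44 FPKM in NT libraries. Without a stated strand setting, the reads of TAGLN and PCSK7 cannot be told apart where they overlap.

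Calponins resemble transgelin in sequence and bind the actin filament. CNN3 stood at 48.1, 33.2 and 34.5 FPKM in KO libraries, against 21.9, 13.6 and 16.6 FPKM in NT libraries, and rose by 1.11 ± 0.22 on the log2 scale (adjusted p = 0.00885), a call that held with any 1 library left out. CNN2 did not pass, at 105, 70.2 and 77.3 FPKM in KO libraries against 67.5, 64.6 and 62.8 FPKM in NT libraries (log2 fold change 0.35 ± 0.19, adjusted p = 0.283). CNN1, the smooth muscle calponin, was at or below 0.056 FPKM in all 6 libraries. The 6 smooth muscle markers, CNN1 among them, were each under 1 FPKM in all 6 libraries and summed to 1.28, 0.884 and 0.798 FPKM in KO libraries, against 1.02, 0.725 and 0.857 FPKM in NT libraries.

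MYL9, at 20:35169900-35179850 on the plus strand, fell in KO libraries. It stood at 0.644, 0.429 and 0.310 FPKM in KO libraries, against 2.595, 3.53 and 4.31 FPKM in NT libraries. The groups lay far apart, with means of 0.461 ± 0.169 FPKM in KO libraries and 3.48 ± 0.861 FPKM in NT libraries (SD, n = 3 each), a ratio of 0.133. It fell by 1.60 ± 0.19 on the log2 scale (adjusted p = 0.000564), which understates the change of a gene this low, and it stayed past the threshold without any 1 library (largest adjusted p 0.00976; 0.00727 without KO replicate 3). MYL9 passed the filter of 1 FPKM in 3 libraries only through the NT libraries. By the estimated depth, its values stand for about 7 to 15 fragments in KO libraries and 60 to 99 in NT libraries if its shortest coding transcript (1024 bases) is taken, and for 19 to 40 and 163 to 269 if its longest (2786 bases) is.

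MYL9 was a minor light chain in both groups. MYL12A and MYL12B, the other regulatory light chain genes of non-muscle myosin II, had log2 fold changes of 0.23 ± 0.20 (adjusted p = 0.518) and -0.37 ± 0.16 (adjusted p = 0.195). MYL9 gave 0.195%, 0.177% and 0.103% of the sum of the 3 genes in KO libraries, against 0.752%, 1.12% and 1.31% in NT libraries (exact permutation p = 0.1, adjusted 0.133). The sum itself overlapped, at 331, 242 and 301 FPKM in KO libraries and 345, 316 and 329 FPKM in NT libraries.

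**Figure D3:**
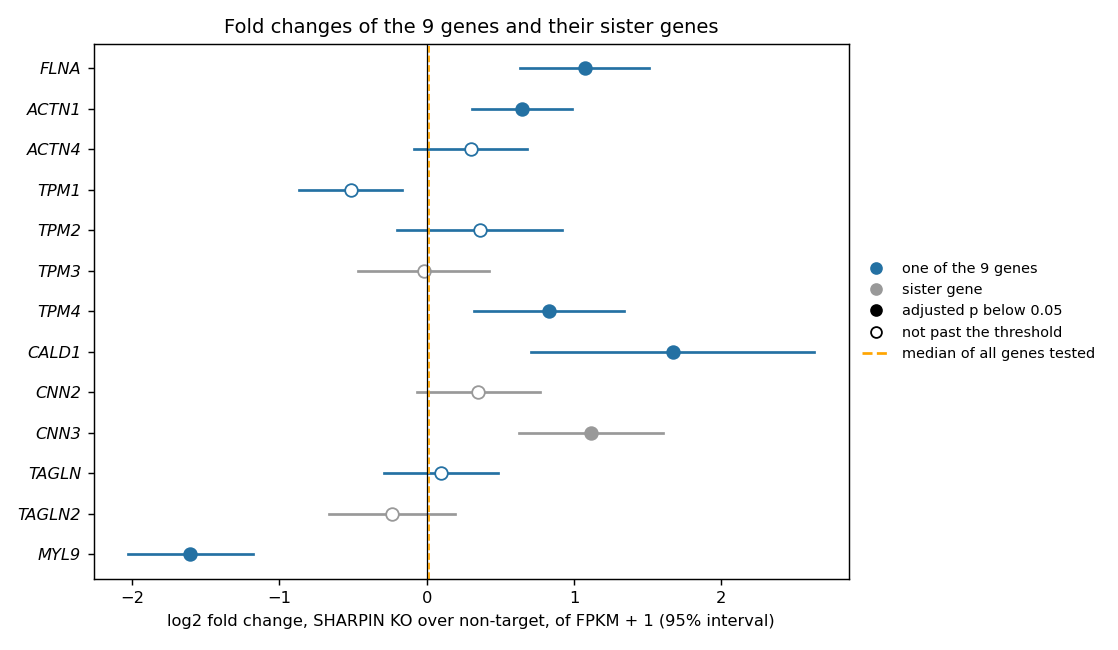
Log2 fold change of FPKM + 1, KO over non-target, with its 95% interval, for the 9 genes (blue) and for TPM3, CNN2, CNN3 and TAGLN2 (grey); filled points passed an adjusted p of 0.05 and the dashed line marks the median of all genes tested, 0.02. CALD1 at 1.67 is the highest of the genes shown and MYL9 at -1.60 is the lowest.

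The order of the members' levels differed between groups, at the top and further down. In KO libraries it ran FLNA, TPM4, ACTN4, ACTN1, TPM1, CALD1, TPM2, TAGLN and MYL9, and each gene exceeded the next in all 3 libraries, except CALD1 over TPM2, which held in 2 of 3. In NT libraries it ran ACTN4, FLNA, TPM4, TPM1, ACTN1, TPM2, TAGLN, MYL9 and CALD1. There TPM2 exceeded TAGLN in 1 of 3 libraries and MYL9 exceeded CALD1 in 2 of 3, so those neighbours could not be ranked beyond their spread. The 9 genes summed to 1020.3, 742 and 689 FPKM in KO libraries, against 537, 499 and 506 FPKM in NT libraries.

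Actin is the filament that the 9 proteins act on. None of the 3 actin genes tested passed the threshold in limma; ACTA2 passed with the replicate block (adjusted p = 0.00157). ACTB, a cytoplasmic actin, stood at 1648, 1553 and 1955 FPKM in KO libraries, against 1082, 1636 and 1560.4 FPKM in NT libraries (log2 fold change 0.29 ± 0.21, adjusted p = 0.436). ACTG1, the other cytoplasmic actin, stood at 1733, 1533 and 1818 FPKM in KO libraries, against 1339, 1198 and 1283 FPKM in NT libraries. Its groups did not overlap, in FPKM or with equal FPKM sums, but its log2 fold change of 0.41 ± 0.16 did not pass (adjusted p = 0.148). ACTA2, the smooth muscle α-actin, stood at 6.54, 4.70 and 5.35 FPKM in KO libraries, against 13.1, 7.63 and 8.74 FPKM in NT libraries (log2 fold change -0.71 ± 0.22, adjusted p = 0.0688).

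Of 12 genes for non-muscle myosin and its regulators, 1 fell and 11 did not pass (median log2 fold change 0.07). PPP1R12B, a targeting subunit of myosin phosphatase, stood at 2.38, 1.77 and 0.899 FPKM in KO libraries, against 8.20, 4.60 and 4.67 FPKM in NT libraries, and fell by 1.34 ± 0.27 on the log2 scale (adjusted p = 0.0103; 0.0517 without KO replicate 2). The abundant light chain genes MYL6 and MYL12B had log2 fold changes of 0.34 ± 0.23 (adjusted p = 0.404) and -0.37 ± 0.16 (adjusted p = 0.195).

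SRF and its coactivators did not pass the threshold. SRF stood at 17.9, 26.9 and 28.5 FPKM in KO libraries, against 16.3, 18.1 and 17.2 FPKM in NT libraries, and KO replicate 1 overlapped the NT range (log2 fold change 0.46 ± 0.20, adjusted p = 0.184; 0.0353 with the replicate block). MRTFA and MRTFB, the actin-sensing coactivators, had log2 fold changes of 0.31 ± 0.17 (adjusted p = 0.301) and -0.30 ± 0.25 (adjusted p = 0.510). These are transcript levels, and the activity of the factors was not measured.

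Of 15 genes for actin-linked adhesion and LIM proteins, 3 rose, 2 fell and 10 did not pass (median 0.10). ZYX, which encodes the focal adhesion protein zyxin, stood at 217, 168 and 215 FPKM in KO libraries, against 118, 127 and 124 FPKM in NT libraries, and rose by 0.69 ± 0.17 on the log2 scale (adjusted p = 0.0261). PXN, which encodes the adhesion scaffold paxillin, stood at 116, 95.3 and 93.6 FPKM in KO libraries, against 69.3, 52.1 and 51.0 FPKM in NT libraries, and rose by 0.82 ± 0.18 (adjusted p = 0.0178). PDLIM7, a PDZ and LIM protein of stress fibres, rose by 0.68 ± 0.19 (adjusted p = 0.0496), and its abundant relative PDLIM1 did not pass (0.78 ± 0.24, adjusted p = 0.0697; 8.16e-05 with the replicate block). These 3 calls were not stable to single libraries: ZYX stayed past the threshold only when KO replicate 2 was the library left out and PDLIM7 only when it was KO replicate 1, with adjusted p up to 0.125 and 0.193 without the others, and PXN was lost without KO replicate 2 (0.0537), NT replicate 2 (0.0927) or NT replicate 3 (0.104).

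The LIM genes that fell were low in KO libraries throughout. FHL1, a LIM-only protein, stood at 3.01, 1.62 and 1.69 FPKM in KO libraries, against 8.21, 7.27 and 7.20 FPKM in NT libraries, and fell by 1.49 ± 0.21 on the log2 scale (adjusted p = 0.00128). FBLIM1 encodes migfilin, an adhesion protein that binds filamin. It stood at 1.53, 1.25 and 1.23 FPKM in KO libraries, against 4.28, 4.79 and 4.85 FPKM in NT libraries, and fell by 1.27 ± 0.16 (adjusted p = 0.000810). Both calls held without any 1 library.

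Of 17 genes for actin assembly and turnover, 1 rose and 16 did not pass (median 0.29). PFN2, a profilin that feeds actin monomers to growing ends, stood at 60.0, 67.2 and 67.1 FPKM in KO libraries, against 40.8, 37.2 and 43.7 FPKM in NT libraries, and rose by 0.66 ± 0.16 on the log2 scale (adjusted p = 0.0216). Its call held without KO replicate 1 and without KO replicate 3 and was lost without any other 1 library (adjusted p 0.0519 to 0.156). The monomer-binding thymosin genes TMSB10 and TMSB4X, the most abundant of the list, had log2 fold changes of 0.51 ± 0.25 (adjusted p = 0.231; 0.0386 with the replicate block) and 0.16 ± 0.27 (adjusted p = 0.771). TMOD1 and TMOD3, tropomodulins that cap the tropomyosin-coated filament end, had log2 fold changes of 0.22 ± 0.18 (adjusted p = 0.511) and 0.29 ± 0.28 (adjusted p = 0.576).

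Over these lists together, 56 genes outside the 9 were tested, of which 5 rose, 3 fell and 48 did not pass. The groups did not overlap for 20 of the 56, against 32.1% of all genes tested. With the replicate number as a block, 10 rose and 6 fell. With quantile normalization 3 rose and 5 fell, and with equal FPKM sums 4 rose and 4 fell. Over all 13092 genes, the same settings in turn gave 1767 higher and 1542 lower, 884 and 867, and 605 and 766. In the main setting, set against the 12.2% of all genes that passed, 8 of 56 is close to the background.

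**Figure D4:**
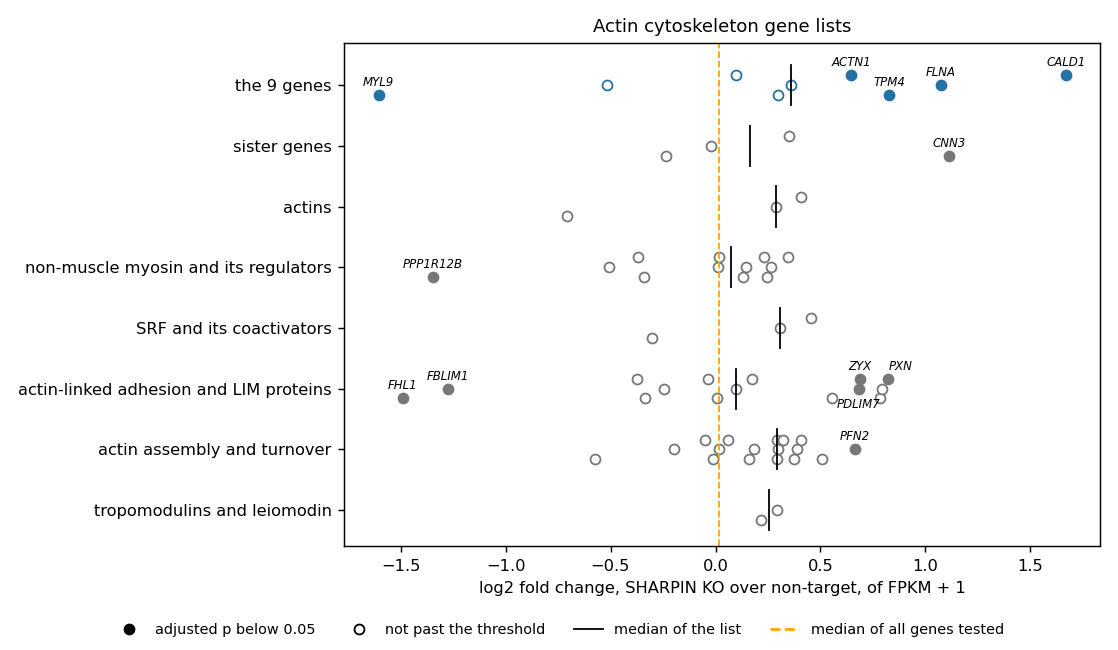
Log2 fold change of FPKM + 1, KO over non-target, for the 9 genes (blue) and the reported genes of 7 lists of the actin cytoskeleton (grey); filled points passed an adjusted p of 0.05 and are named, black ticks mark each list's median, and the dashed line marks the median of all genes tested. Points of a list are spread vertically only to keep them apart; the filled points number 5 among the 9 genes and 8 over the 7 lists.

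The genes whose pattern over the 6 libraries was nearest to each changed member were found among 8547 tested genes with a mean of at least 5 FPKM, by the root mean square difference of log2 values centred on each gene's mean. For FLNA the nearest was PTPN1, a tyrosine phosphatase gene, at 0.0555, followed by ENDOD1 and DYRK3. For ACTN1 it was the death receptor gene FAS at 0.0364, followed by SEC61A2 and BTBD10. For TPM4 it was the ligand gene WNT7B at 0.0469, followed by RRBP1 and SLC12A4. CALD1 lay nearest to TGFB2, a transforming growth factor gene, at 0.131, then to TNFRSF19 and PRSS23, and like CALD1 these 3 were variable, with TGFB2 at 16.0 ± 10.2 FPKM in KO libraries and 3.60 ± 2.62 FPKM in NT libraries (SD, n = 3 each). MYL9 lay nearest to the retinoic acid-binding gene CRABP1 at 0.133, then to MGST1 and ALDH2. The measure describes likeness over 6 libraries that share their groups and their first replicates.

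Of the 7 epithelial markers, the keratin genes made up most of the level. The 7 markers summed to 4792, 6787 and 9651 FPKM in KO libraries, against 3980, 5142 and 5154 FPKM in NT libraries. KRT19, an epithelial keratin gene, rose in KO libraries. VIL1, which encodes the microvillus actin bundler villin, stood at 0.718, 0.354 and 0.458 FPKM in KO libraries, against 2.84, 2.24 and 2.098 FPKM in NT libraries; it was called lower, but it passed the filter only through the NT libraries. The other 5 did not pass, though KRT8 did with the replicate block (adjusted p = 0.0459). The 3 endothelial markers summed to at most 0.062 FPKM in KO libraries and 0.626 FPKM in NT libraries.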

How the data were processed

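Per the labels' protocols, poly-A RNA of LoVo cells was selected and turned into dUTP-marked libraries for DNBSEQ sequencing. Per the submitters' processing notes, reads were aligned to hg19 with TopHat2 2.1.1, and the authors computed the deposited FPKM values with STAR 2.7.10b. The sources used here do not give whether counting used strand or how shared fragments were assigned. Since FPKM are scaled to the mapped total, a change in abundant genes can move all others.

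Symbols missing from a library were set to 0. Annotation of GRCh37 matched 20017 of 22496 symbols. The depth was estimated from the smallest step of low genes with 1 annotated transcript; 90 to 127 of 840 to 977 low values per library lay within 2% of 1 or 2 steps, so whole fragments were not recovered and no count test or counting interval is given. The 9 members and all lists were chosen with earlier results of these data known. The test was limma 3.58.1 (R 4.3.3; robust empirical Bayes, trend on intensity) on log2(FPKM + 1), KO over NT. It covered genes that reached 1 FPKM in 3 or more libraries and was two-sided, with Benjamini-Hochberg adjustment. It was first run on simulated independent libraries drawn from the real means and its own fitted spread. The simulation did not hold the shared deviation of the first replicates, so it does not show how the test behaves on it. Family shares were compared by an exact two-sided permutation test. Of each list the text names every member where 5 or fewer were measured, otherwise those past the threshold (up to 6) and the 2 most abundant; some of the genes listed are not reported here.

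Deviations from the group means correlated across genes between same-numbered KO and NT libraries (r = 0.547, 0.309 and 0.331 for replicates 1, 2 and 3), which meets the mark set for paired numbers (r over 0.1). The reported fit has no block, and the blocked value is given where it changes a call. The pairing rests on replicate 1, since crossed pairs of replicates 2 and 3 gave 0.320 and 0.321. Other settings were the pseudocount, filter, scaling, variance model, the replicate block and each library left out. The fits without both first replicates, without a GC and length trend, and on each gene's own spread were added after seeing the data.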

Additional observations from a re-analysis of the deposited data

How the results depend on the processing

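FLNA and MYL9 kept their direction under every setting that tested them, and their calls too, except that FLNA was lost on each gene's own spread (adjusted p = 0.0676); MYL9 was not tested under a filter of a mean of 5 FPKM. The calls for ACTN1, TPM4 and CALD1 depended on single libraries and on scaling, as given beside them. TAGLN reversed with array weights (log2 fold change -0.1074, adjusted p = 0.4587).

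Of all genes, 1597 of 13092 passed in the main setting, 865 of 8547 with a filter of a mean of 5 FPKM, and 1773 of 22496 with no filter. Of the 13092 genes, 5269 passed with array weights, 1371 with equal FPKM sums and 944 with NT replicates 2 and 3 as 1 sample. On each gene's own spread 715 passed, without both first replicates 2280, and without 1 library 911 to 2090. Members past the threshold numbered 5, against 3 with no filter, 3 with equal FPKM sums, 2 with NT replicates 2 and 3 as 1 sample, 2 on each gene's own spread, and 2 to 4 without 1 library. Genes of the lists numbered 8, against 4 with the filter of 5 FPKM, 29 with array weights, 4 with NT replicates 2 and 3 as 1 sample, 13 without both first replicates, 3 on each gene's own spread, and 4 to 10 without 1 library. The replicate block, which pairs same-numbered libraries, gave 3309 genes, 6 members and 16 list genes; it used an infinite prior for 86.4% of genes. Apart from TPM1, gained, it changed no call of a member. For family shares, the block cannot give a p under 0.25.

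The TPM2 share difference (-0.0353 percentage points) ran from -0.3826 to 0.4795 without 1 library, turned to 0.2793 without KO replicate 1, and to 0.7941 without both first replicates. The causes of these changes were not tested. With 3 libraries a group, the exact permutation test cannot give a p under 0.1 for any share. The size of a difference that could be detected was not computed.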
